A study of Rattus norvegicus with 8 samples.

Results

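The 2 non-ventilated lungs of the series were described on their own, as a baseline of gene expression in resting rat lung. They make up 2 of 8 samples and were chosen by their titles, which name them as non-ventilated controls. The other 6 samples came from rats ventilated at a high tidal volume, 3 prone and 3 supine, and were not compared here. Both control rats were male Sprague-Dawley animals of 340 to 400 g, and RNA came from the dorsal-caudal quadrant of the lung. They received no ventilation, and the labels give neither their age nor whether the controls, like the ventilated rats, were anaesthetised. The titles call the samples biological replicates 1 and 2, called lung 1 and lung 2 below. A value written as a pair gives lung 1 first, and ± is the SD of the 2 lungs.

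The gas-exchange surface of the lung is built from flat alveolar type 1 cells, which lie against a dense capillary bed, and cuboidal type 2 cells, which make surfactant, the mixture of lipids and proteins that lowers surface tension. Conducting airways are lined by club cells, which secrete protective proteins, and by ciliated cells, which move mucus. Fibroblasts, smooth muscle, resident macrophages and lymphocytes fill the walls between them. Bulk RNA mixes all of these, and in it fewer cells of a type and less RNA per cell cannot be told apart.

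Each lung was hybridised to 1 Affymetrix rat array, where a probe set is a group of short probes for 1 transcript and a gene may have several. Levels are log2 GCRMA values, background-corrected and normalised signals, that ran from 1.17 to 15.68 in lung 1 and from 1.12 to 15.699 in lung 2. Of 20214 probe sets that are not array controls, 14993 carried exactly 1 gene symbol and were ranked, and the highest one stood for each of 11217 genes. The median gene read 8.84. A floor of log2 5 was used as a working limit: 9799 genes (87.4%) were at or above it in both lungs, 1199 (10.7%) were under it in both, and 219 lay on either side. The limit cuts through a continuous distribution, with 271 genes whose lower lung read between 5 and 5.5 and 268 between 4.5 and 5. Probe sets at both ends of 2 transcripts report on RNA quality: the 3′ signal exceeded the 5′ signal by 4.06 and 3.31 log2 units for beta-actin and by 1.06 and 0.70 for GAPDH, less in lung 2 for both.

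Rank is a rank of hybridisation signal, not of transcript number, because probe sets of 1 gene can give unequal signals. In the 2819 genes with several probe sets, the range between those of 1 gene had a median of 3.06 log2 units. In 959 of these genes (34.0%) the highest probe set was at or above 5 while the lowest was under it. What made the probe sets of a gene differ was not tested. The second probe set of the surfactant gene Sftpb, for example, read 7.32 against 14.01 for the first, and a second one for the water channel Aqp4 read 3.28 against 11.82. By contrast, the same probe set differed between the 2 lungs by a median of 0.16. Levels of different genes are therefore given below as an order of signals, and close neighbours in that order are not separated.

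**Figure D1:**
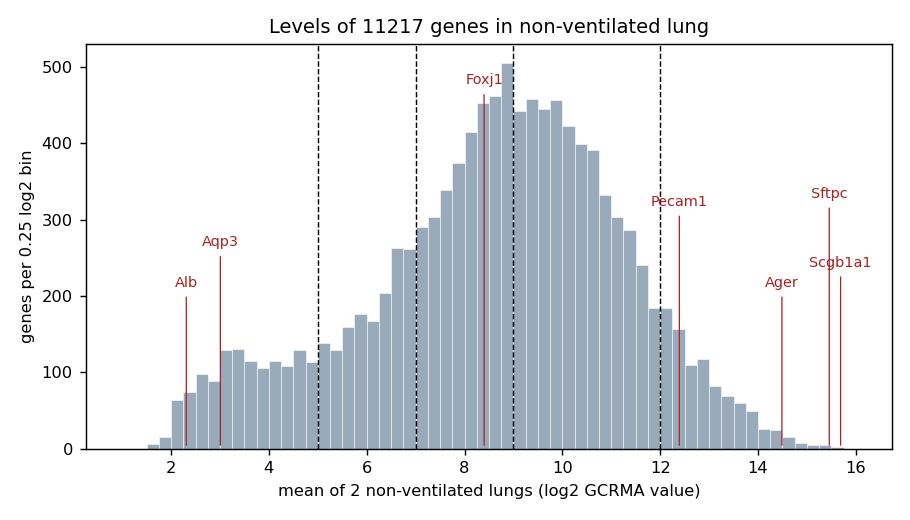
Histogram of the mean log2 GCRMA value of the 2 lungs for 11217 genes, in bins of 0.25, with dashed lines at the band limits of 5, 7, 9 and 12 and red lines at 7 named genes. Most genes lie between 7 and 12, with a low shoulder under 5 that holds the albumin gene Alb and the water channel Aqp3, while Scgb1a1 and Sftpc stand at the upper end.

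Promoters of genes at both ends of the ranking are shown first. The share of promoters with TATAAA, the letters of a TATA box, and with a high CpG content differed along the ranking. The windows are the 100 bases before the annotated start, from RefSeq on GRCr8, with matches to 4 motifs on either strand in capitals. The motifs were the TATA box, searched as TATAAA, and the GC box, searched as GGGCGG. The other two were the CCAAT box, searched by its letters, and the motif of ETS factors, which was searched as CCGGAAG. Scgb1a1 and Sftpa1, from the upper end, and Reg3g, from the lower end, each hold TATAAA. Tmsb4x, also from the upper end, holds a match to the ETS motif at the far end of the window, and no TATAAA. In the windows of Lyz2, Txn1 and Rpl19, likewise from the upper end and not printed, none of the 4 motifs was found. The windows printed are examples and do not show how often a motif occurred. The windows are chr1:215409687-215409786 on the minus strand for Scgb1a1, chr16:17042164-17042263 on the plus strand for Sftpa1, chr4:112484739-112484838 on the minus strand for Reg3g and chrX:30761511-30761610 on the plus strand for Tmsb4x.
Scgb1a1: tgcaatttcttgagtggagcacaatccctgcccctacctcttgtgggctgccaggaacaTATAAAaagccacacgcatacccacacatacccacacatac
Sftpa1: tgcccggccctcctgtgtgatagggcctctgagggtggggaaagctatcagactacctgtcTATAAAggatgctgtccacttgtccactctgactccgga
Reg3g: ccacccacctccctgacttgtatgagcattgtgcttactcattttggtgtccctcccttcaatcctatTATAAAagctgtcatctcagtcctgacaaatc
Tmsb4x: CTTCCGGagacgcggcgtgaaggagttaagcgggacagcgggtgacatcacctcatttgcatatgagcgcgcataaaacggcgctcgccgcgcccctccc

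TATAAA was most frequent at the ends of the ranking. It was found in the 300-base window (250 before to 50 after the start) of 11.3% of the 753 genes with a mean of 12 or more, 5.95% of 3661 genes at 9 to 12, 6.39% of 2613 at 7 to 9, 5.25% of 1258 at 5 to 7, and 11.3% of 1037 under 5. Among the 84 of the 100 highest genes that had a promoter in the table it was found in 14 (16.7%), against 653 of all 9322 measured genes with one. Counted only from 40 to 16 bases before the start, TATAAA was rarer: 3.19% at 12 or more, 0.710% at 9 to 12, 0.957% at 7 to 9, 0.795% at 5 to 7 and 3.38% under 5. There it was found in 5 of the 84 and in 1.29% of all measured genes. The match in Scgb1a1 began 41 bases before the start, outside this stretch. CpG content followed a different course. The ratio of observed to expected CpG was above 0.6, a usual mark of CpG-island promoters, in 47.7% of genes under 5, 65.0% at 5 to 7, 72.3% at 7 to 9, 77.5% at 9 to 12 and 75.2% at 12 or more. Scgb1a1 (ratio 0.28), Sftpa1 (0.27) and Reg3g (0.12) lay below this limit and Tmsb4x (0.95) above it. The GC box GGGCGG rose in frequency along the ranking, from 47.4% under 5 to 68.8% at 12 or more, against 61.9% of all measured genes, while CCAAT stayed between 35.1% and 39.4% across the bands. CCGGAAG was found in 7.81% of genes under 5, in 19.9% and 19.8% at 7 to 9 and 9 to 12, and in 14.1% at 12 or more. A match is a string in a window and is not evidence of binding. The genes under 5 are not a sample of all silent genes. Of the 1199 under 5 in both lungs, 509 read under 3.5 in both and reached 3.5 only in a ventilated lung. In the whole RefSeq promoter table, which includes genes not measured here, 14.3% of windows held TATAAA, 34.9% GGGCGG, 37.7% CCAAT and 9.22% CCGGAAG.

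The strongest signal in resting lung came from a secreted airway protein. Scgb1a1, the secretoglobin of club cells, read 15.681 and 15.699. Tmsb4x, which encodes the actin-binding peptide thymosin beta-4, followed at 15.54 and 15.56. COX2, in this annotation the symbol of the mitochondrially encoded subunit of cytochrome c oxidase, read 15.40 and 15.52. Sftpc, the surfactant protein made by type 2 cells, read 15.41 and 15.51, and Lyz2, the lysozyme of macrophages and type 2 cells, 15.37 and 15.41. The pairs of these 5 genes differed by at most 0.12, so neighbours such as COX2 and Sftpc (both 15.46) cannot be ordered.

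Below them the top of the list was shared between general and lung-specific functions. Of the 100 highest genes, which are 0.892% of all genes, 34 encoded ribosomal proteins, led by Rps29 (15.34 and 15.32) and Rps24 (15.22 and 15.15). Other general genes were B2m, the light chain of MHC class I (15.26 ± 0.03, SD, n = 2), the elongation factor Eef1a1 (15.04 ± 0.05) and Txn1, which encodes thioredoxin (14.89 ± 0.04). S100a6, a calcium-binding protein, read 14.998 and 14.997. Selenop, a secreted selenium carrier, read 14.77 and 14.83, and Gsn, the actin-severing protein gelsolin, 14.68 and 14.92. The spectrin gene Sptbn1 read 14.69 and 14.74, although its other probe sets read 10.14 and 6.99. Defb4, a beta-defensin with antimicrobial activity, read 14.57 and 14.64. Epas1, the hypoxia-inducible factor abundant in endothelium, read 14.63 and 14.57, and Mfap4, a protein of elastic fibres, 14.54 and 14.64. The 100 highest probe sets held 13.6% and 13.5% of the summed linear signal of the ranked probe sets in lungs 1 and 2. The last gene among the 100 stood at 13.873 and the next one at 13.872, so that limit is arbitrary.

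Alveolar type 2 markers had the highest median of all cell type lists. All 12 were at or above the floor, against 87.4% of all genes, 9 had a mean of 12 or more, against 8.15%, and the list median was 13.69 against 8.84. The surfactant proteins came first: after Sftpc, Sftpa1 read 14.69 and 14.88, Sftpb 13.91 and 14.11, and Sftpd, a collectin of innate defence, 13.54 and 13.63. Slc34a2, the phosphate transporter of type 2 cells, read 14.48 and 14.64. Ctsh and Napsa, proteases that process surfactant proteins, averaged 14.02 ± 0.03 and 13.25 ± 0.07, and Lamp3, a membrane protein of lamellar bodies, 13.81 ± 0.02. The lipid side lay lower: Lpcat1, which makes the saturated phospholipid of surfactant, read 12.17 and 12.43, and Abca3, the lipid pump of lamellar bodies, 11.77 and 11.92. The mucin Muc1 read 11.76 and 12.04. Etv5, a transcription factor of these cells, was the lowest at 9.77 and 9.92.

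Lipid synthesis and handling genes linked to surfactant were all above the floor, 16 of 16 measured, against 87.4% of all genes. Their median was 11.98 against 8.84. Prdx6, a peroxiredoxin with phospholipase activity, read 13.07 and 13.45. Fabp5, a fatty acid carrier, read 12.86 and 13.27, Adgrf5, a receptor that limits the surfactant pool, 12.90 and 13.04, and lipoprotein lipase, Lpl, 12.44 and 12.73. At the lower end Srebf1, the regulator of fatty acid synthesis, read 8.21 in both lungs, and the choline kinase gene Chka 8.81 in both.

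Type 1 cell markers stood next. All 11 measured were above the floor, against 87.4% of all genes. At 12 or more were 8 of them, against 8.15%, with a list median of 12.89 against 8.84 for all genes. The listed genes Rtkn2 and Spock2 were not analysed here. Ager, the receptor RAGE of the type 1 cell surface, read 14.54 and 14.44. Hopx, a homeodomain cofactor, read 14.42 and 14.54, and Cav1, the coat protein of caveolae, 14.39 and 14.28. Gprc5a averaged 13.67 ± 0.12, the tight junction gene Cldn18 13.26 ± 0.12, the water channel Aqp5 12.89 ± 0.19, Emp2 12.89 ± 0.15 and Pdpn, podoplanin, 12.45 ± 0.08. Lower members were Igfbp2 (10.31 ± 0.14), the anchoring protein Akap5 (9.51 ± 0.08) and the chloride channel family member Clic5 (8.73 ± 0.14).

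The airway lists spread widely. Among 8 club and secretory genes measured, Scgb1a1 stood at the top of the array. Under the floor in both lungs were 3 of the 8, against 10.7% of all genes, and the median was 6.86. Aldh1a1, a retinaldehyde dehydrogenase, read 13.70 and 13.72, Cyp2f4, a P450 of club cells, 10.48 and 10.44, and Scgb3a1, another secretoglobin, 9.15 and 8.52. The secreted proteins of larger airways were low: Bpifa1 read 2.97 and 3.91, and the lectin Reg3g, which is inducible by infection, 1.95 and 1.90. Of 8 ciliated cell genes, 7 (87.5%) were above the floor, with a median of 8.29, close to 87.4% and 8.84 for all genes. Tppp3, a tubulin-binding protein, read 13.23 and 13.29, Dynlrb2, a dynein light chain, 11.30 and 10.97, and Foxj1, the regulator of motile cilia, 8.44 and 8.36. Dnai1, a dynein arm component, was the lowest at 5.86 and 4.92. Of 10 listed basal, goblet and neuroendocrine genes 3 were measured. Spdef, a goblet cell factor, read 7.13 and 6.86, while Calca, the gene of the neuroendocrine peptide CGRP, read 3.93 and 3.88, and the basal keratin Krt14 2.32 and 2.40.

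**Figure D2:**
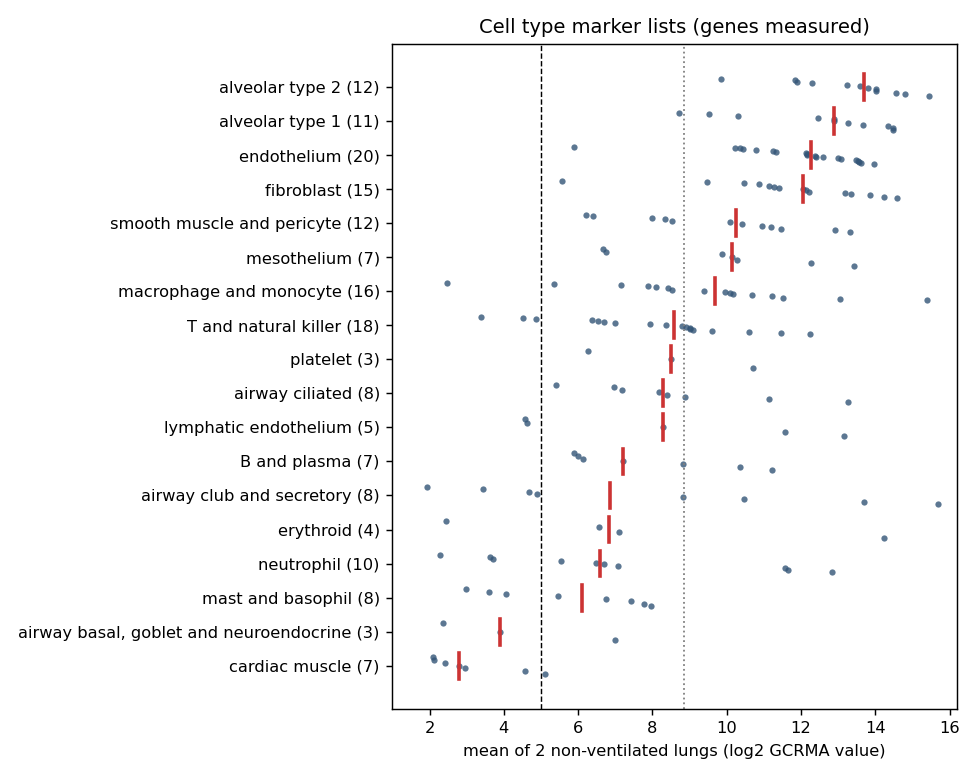
Mean log2 GCRMA value of the 2 lungs for each measured gene (points) of 18 cell type lists, with the list median as a red bar, the floor of 5 as a dashed line and the median of all genes, 8.84, as a dotted line; the number of genes is in brackets. Alveolar type 2 and type 1, endothelial and fibroblast lists have the highest medians, from 13.69 down to 12.05, and cardiac muscle the lowest, 2.78.

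Endothelial genes formed the next level. All 20 measured were above the floor, against 87.4% of all genes. A mean of 12 or more was reached by 13, against 8.15% of all genes, with a median of 12.27 against 8.84. Tek, the angiopoietin receptor, read 13.98 and 13.93. Thbd, the anticoagulant thrombomodulin, read 13.58 and 13.63, Kdr, the main VEGF receptor, 13.55 and 13.57, and Ramp2, a partner of the adrenomedullin receptor, 13.52 and 13.57. The receptor that Ramp2 partners, Calcrl, had the lowest value of the list at 5.25 and 6.51, and its second probe set read 4.10. Sox18, an endothelial transcription factor, read 10.35 and 10.07. Of 5 lymphatic genes, Lyve1, a hyaluronan receptor, read 13.07 and 13.24 and the chemokine Ccl21 11.31 and 11.81, whereas Prox1, the factor that specifies lymphatic identity, averaged 4.63 ± 0.18, and Flt4, the lymphatic VEGF receptor, 4.44 and 4.71, both under the floor. Genes of vascular tone had a median of 10.40, and 13 of 15 (86.7%) were above the floor, close to the 87.4% of all genes. Ace, the angiotensin-converting enzyme of lung capillaries, read 12.22 and 12.08. Gucy1a1, a subunit of the nitric oxide receptor, read 12.10 and 12.17, the endothelin-converting enzyme Ece1 11.09 and 11.26, and Bmpr2, the receptor mutated in heritable pulmonary hypertension, 10.85 and 11.20. Agt, the angiotensin precursor made mainly in liver, read 4.35 and 4.96 and the natriuretic peptide clearance receptor Npr3 3.01 and 3.93.

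Stromal lists were also high. All 15 fibroblast genes measured were above the floor, against 87.4% of all genes, with a median of 12.05 against 8.84. They were led by Mfap4, Col3a1, which encodes type III collagen (14.17 and 14.30), Limch1 (13.76 and 13.93) and Col1a2 (13.23 and 13.46). The lowest were Pi16 (9.20 and 9.71) and the growth factor Wnt2 (5.69 and 5.46). All 12 smooth muscle and pericyte genes were above the floor, against 87.4% of all genes, with a median of 10.25. Mylk, the myosin light chain kinase, read 13.21 and 13.45, Tagln 12.85 and 12.96, the smooth muscle myosin Myh11 11.36 and 11.54, and the actin Acta2 11.34 and 11.03. The pericyte genes Cspg4 (6.41 ± 0.19) and Kcnj8 (6.21 ± 0.11) were lowest. Other pericyte genes of the list, named after their values were seen, read higher. Higd1b read 10.97 and 10.93, Rgs5 8.08 and 8.58, and Pdgfrb 7.99 and 8.01. Mesothelium, the cell layer on the lung surface, was represented by 7 measured genes, with a median of 10.14. All 7 were above the floor, against 87.4% of all genes. Krt19, which airway and alveolar cells also make, read 13.39 and 13.47, Gpm6a 12.26 and 12.29, mesothelin, Msln, 10.25 and 10.28, and the uroplakin Upk1b 10.40 and 9.88. The transcription factors Bnc1 (6.88 and 6.60) and Wt1 (6.61 and 6.75) were lowest.

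Matrix genes spanned a wide range. Of 30 collagen genes 22 were above the floor and 7 under it, against 87.4% and 10.7% of all genes. After Col3a1 and Col1a2 came the fibrillar collagen Col5a2 at 12.88 and 13.11 and the basement membrane collagen Col4a5 at 12.68 and 12.86. Another fibrillar collagen, Col11a1 (3.34 and 3.16), the cartilage collagen Col9a3 (3.41 and 3.37) and Col27a1 (2.96 and 2.94) were at the lower end. All 25 elastic fibre and basement membrane genes measured were above the floor, against 87.4% of all genes. After Mfap4 came Sparc, a collagen-binding protein (14.16 in both lungs), the basement membrane linker Nid1 (12.36 and 12.58) and the crosslinking enzyme Loxl1 (12.21 and 11.69). Perlecan, Hspg2 (7.27 and 7.31), and the epithelial laminin chain Lama3 (5.56 and 6.14) were lowest.

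Immune cell lists held a few of the strongest signals and many low ones. Of 16 macrophage and monocyte genes 14 (87.5%) were above the floor, nearly the share of all genes (87.4%), with a median of 9.67. Apart from Lyz2 and Fabp5, which other lung cells also make, the growth factor receptor Csf1r read 11.86 and 11.18 and the mannose receptor Mrc1 10.98 and 11.47. The scavenger receptor Cd163 read 4.94 and 5.78, and the integrin Itgam, which monocytes and neutrophils carry, 2.52 and 2.40. All 11 genes of MHC class II presentation were above the floor, against 87.4% of all genes. At 12 or more were 7 of them, against 8.15%, and the median was 12.42 against 8.84 for all genes. Cd74, the invariant chain, read 14.77 and 14.72, RT1-Da 13.55 and 13.58, RT1-Db1 12.98 and 12.85 and RT1-Ba 12.93 and 12.74. RT1-DMa, which helps load peptides, read 9.69 and 9.20, and Ciita, the coactivator of the whole set, read 7.84 and 7.30, under the median of all genes. RT1-Bb differed most between the lungs, at 11.23 and 13.05, but its second probe set read 5.59 and 5.08, in the other direction.

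The class II promoters share a known element, the Y box, whose core is the CCAAT box. The letters CCAAT, on either strand, were found in the 300-base window of 8 of the 9 presentation genes with a promoter in the table, against 37.6% of all measured genes with one. The presentation list also holds genes that are not class II chains, such as Ciita, and a match anywhere in the window need not be a Y box. The 3 windows of 100 bases shown, chosen after their values were seen, are chr20:4515315-4515414 on the plus strand for RT1-Da, chr20:4576957-4577056 on the plus strand for RT1-Ba and chr20:4604119-4604218 on the minus strand for RT1-Bb, all on GRCr8. The capitals mark the box, which reads ATTGG on the strand shown. It began 49, 43 and 61 bases before the annotated start.
RT1-Da: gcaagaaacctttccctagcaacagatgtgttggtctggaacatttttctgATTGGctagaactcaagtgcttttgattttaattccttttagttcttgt
RT1-Ba: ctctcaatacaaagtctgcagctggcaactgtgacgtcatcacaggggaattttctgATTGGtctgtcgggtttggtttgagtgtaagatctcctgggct
RT1-Bb: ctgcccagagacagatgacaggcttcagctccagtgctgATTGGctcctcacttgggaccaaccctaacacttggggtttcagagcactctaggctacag

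Neutrophil, lymphocyte and blood genes lay at mixed levels. Of 10 neutrophil genes 7 were above the floor, against 87.4% of all genes, with a median of 6.58 against 8.84. The calprotectin subunits S100a9 (13.01 and 12.68) and S100a8 (11.63 and 11.50) and Lcn2, a lipocalin that epithelium also makes (11.38 and 11.90), led, while Camp, a granule peptide, read 6.62 and 7.54. The collagenase Mmp8 (3.56 and 3.70) and the chemokine receptor Cxcr2 (2.32 and 2.23) were under the floor. Of 18 T and natural killer cell genes 15 (83.3%) were above it, with a median of 8.59: the chemokine Ccl5 read 12.64 and 11.85, perforin, Prf1, 11.97 and 10.94, the T cell receptor chain Cd3g 11.18 and 10.01 and the kinase Lck 10.17 and 9.06. All 7 B and plasma cell genes were above the floor, against 87.4% of all genes. They ran from Jchain, the joining chain of secreted antibody (10.78 and 11.64), to Cd22 (6.75 and 5.03). Of 8 mast cell and basophil genes 4 were above the floor, against 87.4% of all genes. Hdc, which makes histamine (8.20 and 7.70), and the protease Cpa3 (8.14 and 7.40) led, with the receptor Kit lowest (2.28 and 3.70). Of 4 erythroid genes measured 3 were above the floor, against 87.4% of all genes. The beta-globin gene Hbb read 14.17 and 14.28, Alas2, the erythroid enzyme of haem synthesis, 7.10 and 7.08, and Ahsp, a chaperone of alpha-globin, 5.98 and 7.13. Slc4a1, the anion exchanger of the red cell membrane, was under the floor at 2.48 and 2.40. Pf4, a platelet chemokine, read 10.57 and 10.87.

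Signalling genes reached from the top of the scale to the bottom. Of 34 cytokine and chemokine genes measured, 22 (64.7%) were above the floor and 8 under it in both lungs, against 87.4% and 10.7% of all genes, and the median was 7.21 against 8.84. Ccl6, a chemokine of myeloid cells, read 14.24 and 14.58, Cxcl3, which attracts neutrophils, 14.01 and 14.37 on the highest of its 5 probe sets, Il33, an alarmin stored in nuclei, 13.10 and 13.27, and Cxcl12, a homing chemokine, 12.17 and 12.54. The other Cxcl3 probe sets averaged 12.53, 6.25, 6.21 and 4.99, so its place in the order depends on the probe set. The lowest of the list were the granulocyte growth factor Csf3 (2.48 and 2.42) and Ccl22 (2.20 and 2.10). Of 19 immediate early genes, 15 (78.9%) were above the floor, a smaller share than the 87.4% of all genes, while their median of 10.12 was above the 8.84 of all genes. Dusp1, the phosphatase MKP-1 named in the series title, read 14.12 and 13.44, with a second probe set at 7.87. Jund read 12.77 and 12.79, Jun 12.61 and 12.32 and Fos 12.49 and 12.36. Nr4a3 (2.87 and 2.95) and Fosl1 (2.52 and 2.39) were lowest.

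A list of 28 transcription factors held factors that pattern the lung and others with broader roles, such as Klf2 and Hif1a. Of the 28, 27 (96.4%) were above the floor, against 87.4% of all genes, with a median of 10.97 against 8.84. After Epas1 and Hopx came Klf2, a factor induced by blood flow (13.95 and 13.42), and Hif1a (12.63 and 12.71). Id1 read 12.58 and 12.45 and Klf4 12.60 and 12.34. Nkx2-1, the master regulator of lung epithelium, read 11.97 and 11.61, and its partner Foxa2 10.98 and 10.94. The mesenchymal factors Tbx4 (11.02 and 11.65), Foxf1 (10.98 in lung 1 and 10.99 in lung 2) and Tcf21 (10.75 and 11.55) and the endothelial factor Sox17 (11.22 and 11.25) lay close together. Id3 (11.68 ± 0.31), Id2 (11.01 ± 0.20), Foxp1 (10.99 ± 0.05), Cebpa (10.85 ± 0.30), Tbx5 (10.29 ± 0.07) and Erg (9.89 ± 0.29) lay in the same range. Lower were Tbx3 (8.78 ± 0.10), Sox2, a factor of the conducting airway (7.98 ± 0.32), Foxp2 (7.89 ± 0.43), Elf5 (7.69 and 7.32), Gata6 (7.18 ± 0.10), Elf3 (6.79 ± 0.25) and Tbx2 (4.52 and 5.76). Of the Hox genes, which record position along the body, 5 were in the ranking. All were above the floor, against 87.4% of all genes. Hoxa5, needed for lung development, read 12.53 and 12.16, Hoxb2 9.03 and 8.77, and Hoxb3, Hoxb4 and Hoxb6 between 6.34 and 6.80 on average.

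Transport and barrier families each had a few dominant members. Of 6 aquaporins, Aqp5 (13.03 and 12.76), Aqp1, the endothelial form (12.56 and 12.99), and Aqp4, the basolateral form (12.04 and 11.59), were above the floor. Aqp9, Aqp12a and Aqp3 were under it in both lungs, with Aqp3 at 3.40 and 2.62. Of all genes, 87.4% were above the floor and 10.7% under it. Other transport genes included the chloride importer Slc12a2 (12.20 and 12.27) and the sodium pump subunit Atp1b3 (11.85 and 12.22), and the lowest above the floor was Cftr, the chloride channel (7.08 and 7.82). Among 10 claudins, which seal tight junctions, Cldn18 of epithelium and Cldn5 of endothelium (12.89 and 13.13) led, and Cldn4 (7.01 and 6.39) and Cldn1 (4.62 and 5.94) were lowest. Of 6 connexins Gja1 led (13.15 and 13.11). Of 10 keratins, those of simple epithelium stood highest: Krt19, Krt7 (12.49 and 12.41), Krt8 (12.17 and 12.12) and Krt18 (11.86 and 11.55). Krt6c and Krt14, keratins of stratified epithelium, were under the floor. Krt10 (7.66 and 7.62) and Krt15 (7.05 and 7.57), also keratins of stratified epithelium and named after their values were seen, were above it. Of 21 integrin genes 19 were above the floor, against 87.4% of all genes, with Itgb1 highest (13.30 and 13.19).

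Genes of defence against oxidants and foreign compounds had a median of 11.09 against 8.84 for all genes. Above the floor were 33 of 34 (97.1%), against 87.4%. At 12 or more were 14 of them, against 8.15%. After Txn1 came the glutathione peroxidases Gpx1 (14.25 and 14.07), Gpx3 (13.88 and 14.02) and Gpx4 (13.79 and 13.78). Glutathione reductase, Gsr (6.10 and 6.29), and the metallothionein Mt1 (3.89 and 4.33) were lowest. Of 32 cytochrome P450 genes, 21 (65.6%) were above the floor and 10 under it, against 87.4% and 10.7% of all genes, and the median was 6.58. Cyp26b1, which degrades retinoic acid (12.65 and 12.27), Cyp4b1 (12.36 and 12.52), Cyp4v3 (10.93 and 11.05) and Cyp2f4 led, and the male liver form Cyp2c11 (1.86 and 1.84) and Cyp27b1, which activates vitamin D (1.96 and 1.98), were lowest.

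Most ribosomal and respiratory genes stood high. Of 42 ribosomal protein genes 38 had a mean of 12 or more, against 8.15% of all genes. The median was 14.46 against 8.84 for all genes. The remaining 4 were Rps27l, a stress-inducible relative (7.83 and 8.44), Rpl39 (7.17 and 6.21), Rpl28 (5.33 and 5.28) and Rps13 (2.93 and 2.46). Rps13 encodes a core part of every ribosome, so a reading under the floor is not by itself a sign of an absent transcript. Of the 36 with a promoter in the table, 11 (30.6%) had a start at which C was followed by 4 more pyrimidines, as in the 5′ terminal oligopyrimidine tract of ribosomal transcripts, against 2.74% of all measured genes. Of 76 subunits of oxidative phosphorylation, 75 (98.7%) were above the floor, against 87.4% of all genes, with a median of 12.08. Among these 76, the ATP synthase subunit Atp5f1e led (14.18 and 14.11), with Ndufa1 at 13.84 and 13.81. The list left out mitochondrially encoded subunits such as COX2, which read higher (15.40 and 15.52). Cox6a2, the form of heart and skeletal muscle, was the exception at 1.56 and 1.78. Other muscle forms, named after their values were seen, were above the floor: Cox7a1 read 9.39 and 9.08 and Cox8b 9.13 and 9.62.

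**Figure D3:**
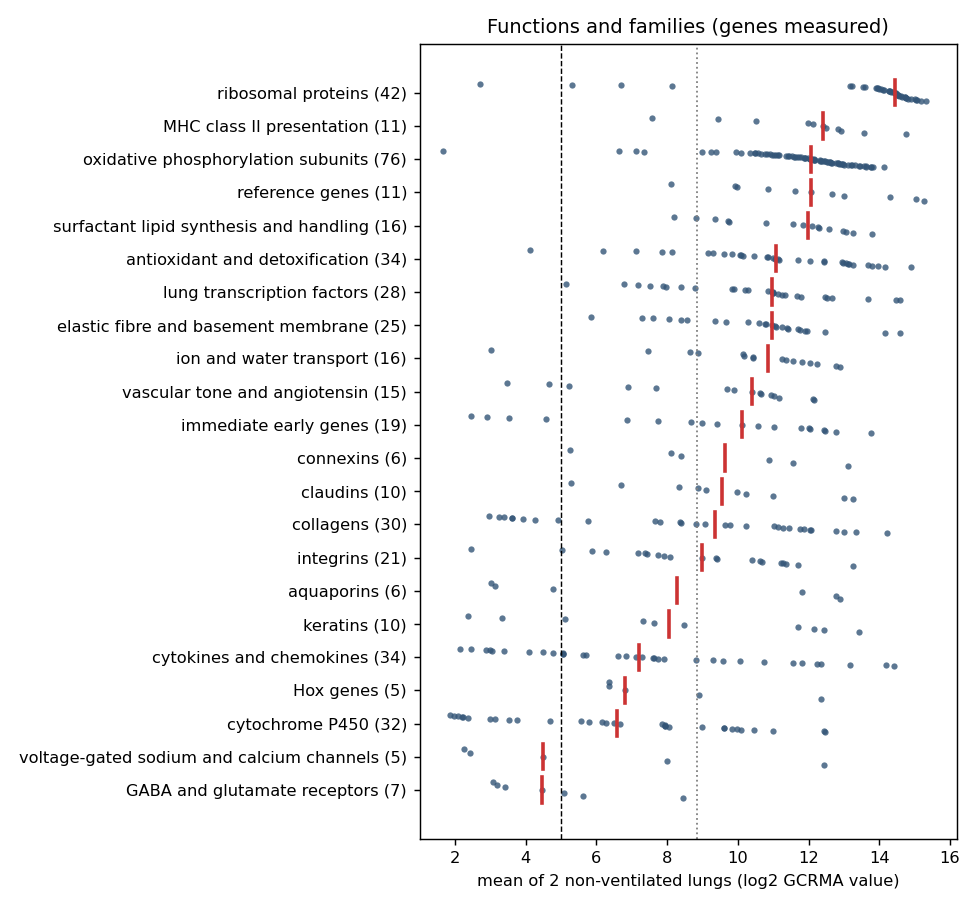
Mean log2 GCRMA value of the 2 lungs for each measured gene (points) of 22 functional lists and families, with the list median as a red bar, the floor of 5 as a dashed line and the median of all genes as a dotted line; the number of genes is in brackets. Ribosomal protein genes cluster around 14.46 with 4 members apart, while cytochrome P450, collagen and cytokine genes spread across nearly the whole scale.

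Moderate levels were the rule. Of the 11217 genes, 914 (8.15%) had a mean of 12 or more, 4365 (38.9%) lay at 9 to 12, 3142 (28.0%) at 7 to 9, 1500 (13.4%) at 5 to 7 and 1296 (11.6%) under 5. The 10 genes nearest the median included Mustn1 (8.70 and 8.98), Nans, which makes sialic acid (8.80 and 8.88), Slc25a28, a mitochondrial iron carrier (8.83 and 8.85), Dnase2, a lysosomal nuclease (8.82 and 8.87), Abcf2 (8.74 and 8.93) and Gemin2, part of the complex that assembles splicing particles (8.84 in both). Reference genes often used to normalise such data reached from B2m down to Gusb (9.86 and 9.95) and Tbp, the TATA-binding protein (8.05 and 8.14).

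Genes that define other organs marked the low end, with exceptions. Of 99 genes listed for 10 other tissues, 28 were in the ranking, with a median of 2.75. Of the 28, 19 were under the floor in both lungs and 9 above it, against 10.7% and 87.4% of all genes. Of these 19, 15 read under 3.5 in both lungs and were in the table only through a ventilated lung, as set out below. The plasma proteins of liver were mostly at the bottom: albumin, Alb, read 2.35 and 2.27, Ttr 2.14 and 1.97 and the fibrinogen beta chain Fgb 2.08 and 2.01. Yet the fibrinogen gamma chain Fgg read 10.90 and 11.45, Cyp2e1 9.46 and 10.49 and Serpina1, the antitrypsin that protects lung tissue, 9.84 and 9.91. Among skeletal muscle genes Acta1, Tnnt3, Ckm and Mb averaged between 2.15 and 3.05, while all 5 probe sets of the myosin gene Myh1 averaged between 8.996 and 10.57. Myosin heavy chain genes are near-identical copies over long stretches, and which of them these probe sets read is uncertain. Nefl and Snap25 of neurons averaged 2.69 and 2.04 and the photoreceptor gene Gnat1 2.01, but Stmn2, a neuronal tubulin regulator, read 5.68 and 8.04. Of 7 cardiac muscle genes measured 6 were under the floor in both lungs, against 10.7% of all genes. The remaining gene, Pln, read 5.31 and 4.91. The atrial myosin light chain Myl7 (2.13 and 2.10) and the cardiac troponin gene Tnni3 (2.15 and 2.05) were lowest. The walls of rodent pulmonary veins are known to contain heart-type muscle.

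The lowest values of all belonged to Adat3 (1.53 and 1.47), Ltb4r, a leukotriene receptor of neutrophils (1.518 and 1.503), and Cox6a2. The muscle proteins Myom2 (1.72 and 1.69) and Mybph (1.76 and 1.75), Chrne, the adult muscle acetylcholine receptor subunit (1.77 and 1.68), and the liver products Hamp, the iron hormone hepcidin (1.83 and 1.80), Serpina3c (1.86 and 1.82) and Cyp2c11 were among the 15 lowest. The table bounds what can be said of silent genes. Every probe set in it reached at least 3.50 in 1 or more of the 8 samples, as if probe sets lower than that everywhere had been left out. Of the 1199 genes under the floor in both control lungs, 509 (42.5%) were under 3.5 in both and so passed that limit only through a ventilated lung. Of the listed genes of other tissues, 71 were not analysed here.

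Both rats were labelled male, and the 2 Y-linked genes measured were above the floor in both lungs. Eif2s3y, a translation factor subunit, read 10.45 and 10.57 and Uty, a histone demethylase relative, 9.80 and 9.74. Genes on the X chromosome made up 3.02% of all genes and 4.41% of those at 12 or more.

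The 2 lungs gave nearly the same order of genes, with Pearson's r of 0.989 and Spearman's rho of 0.990 across genes, which are not independent replicates. Their difference depended on level. The median SD was 0.07 at a mean of 12 or more, 0.09 at 9 to 12, 0.14 at 7 to 9, 0.19 at 5 to 7 and 0.15 under 5. At 12 or more 1 gene of 914 differed by 1 or more, against 116 of 1500 (7.73%) at 5 to 7. In all, 350 genes (3.12%) differed by at least 1 log2 unit, 235 lower and 115 higher in lung 2. Ranked by each lung alone, 89 genes were common to both lists of 100 highest genes.

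**Figure D4:**
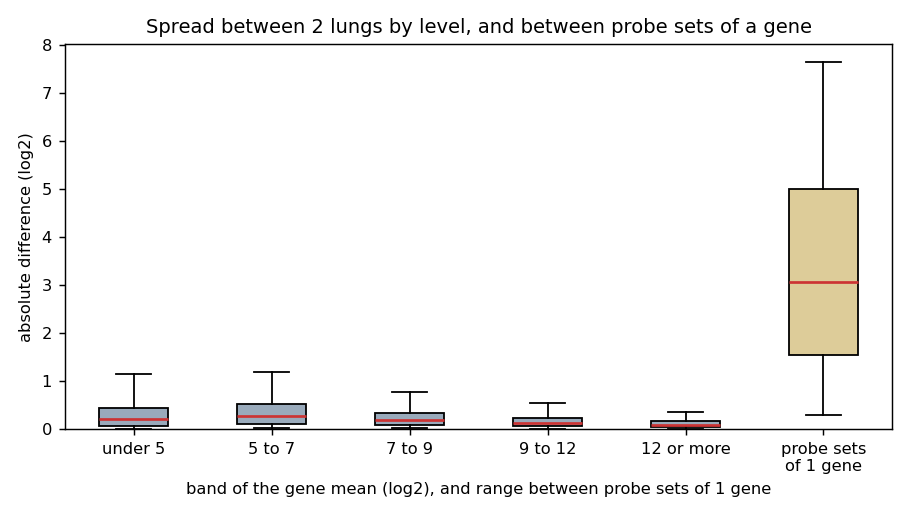
Boxes show the absolute difference between the 2 lungs in log2 units for genes in 5 bands of the mean (blue), and the range between probe sets of 1 gene for 2819 genes (tan); boxes span the quartiles, red lines are medians and whiskers reach the 5th and 95th percentiles. Differences between lungs shrink at high levels, and the range between probe sets of a gene, with a median of 3.06, is far wider than any of them.

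Among cell type lists, the 2 lymphocyte lists differed most between the lungs, by their medians. All 18 T and natural killer cell genes were lower in lung 2, against 56.5% of all genes, by 0.79 to 2.01 log2 units with a median difference of -1.27, and 14 of 18 differed by 1 or more, against 3.12% of all genes. Of the 18 genes, Ncr1 and Cd8b were under the floor in both lungs and Trat1 in lung 2. Cd8a, the largest, read 10.03 and 8.01, Gzma, a granule protease of killer cells, 9.76 and 8.28 and Cd3e, part of the T cell receptor complex, 9.50 and 8.11; these were named after their values were seen. Of 7 B and plasma cell genes 6 were lower in lung 2 with a list median of -1.38, among them Ms4a1, the B cell antigen CD20 (9.64 and 7.996), while Jchain was higher in lung 2. Of 8 mast cell and basophil genes 7 were lower in lung 2 (median -0.62). No test is possible with 1 animal on each side.

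Fibroblast genes leaned the other way. Of 15 fibroblast genes 13 were higher in lung 2, against 43.5% of all genes, with a median difference of 0.26; decorin, Dcn, read 10.30 and 11.45 and Inmt, a methyltransferase of lung fibroblasts, 11.63 and 12.47. These and the macrophage genes below were named after their values were seen. All 16 surfactant lipid genes were higher in lung 2, against 43.5% of all genes, with a median difference of 0.18. Some gaps were minute, such as 0.003 for Chka and for Srebf1. The 3 lymphatic endothelial genes above the floor, Lyve1, Ccl21 and Mmrn1, were also higher in lung 2. Most type 1 cell genes were lower in lung 2, with Aqp5 furthest at -0.27, against 56.5% of all genes. Hopx and Akap5 were higher, by 0.12 each. Macrophage genes split: Fabp4 (6.96 and 8.82) and the complement genes C1qa, C1qb and C1qc were higher in lung 2, while Adgre1 (9.26 and 7.80), Itgax (8.72 and 7.47) and Csf1r were lower. Endothelial (median 0.025), smooth muscle (0.001) and mesothelial (0.03) lists were nearly level. The 5′ signal of beta-actin was also higher in lung 2 (10.44 and 11.27), and its part in these differences was not tested.

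**Figure D5:**
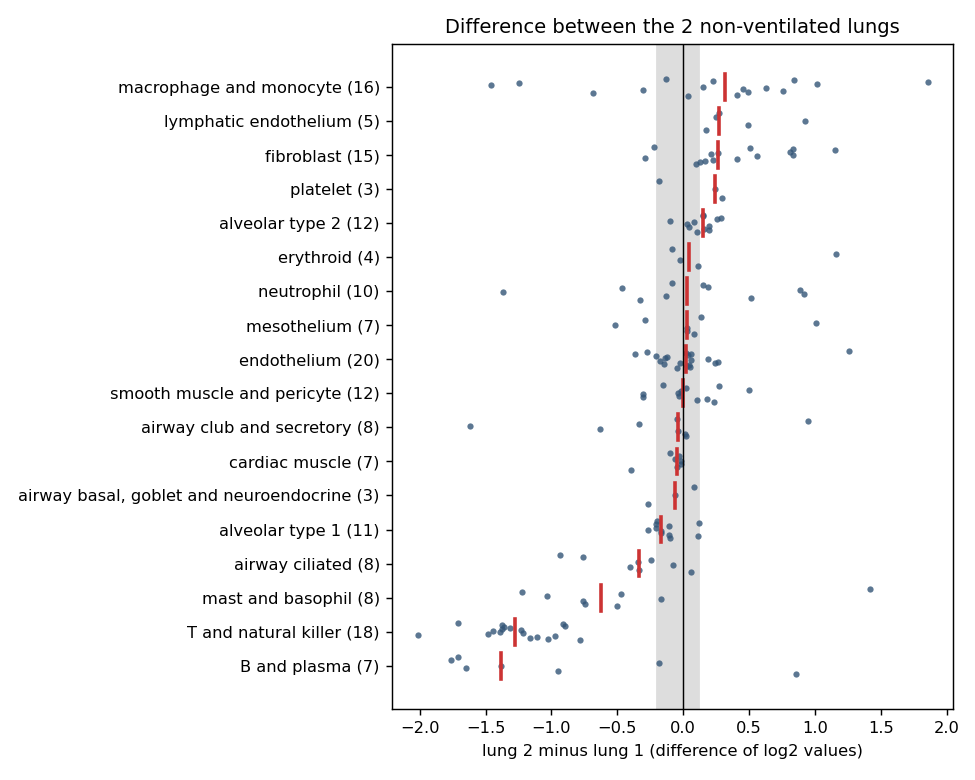
Difference between lung 2 and lung 1 in log2 units for each measured gene (points) of 18 cell type lists, with the list median as a red bar and the quartile range of all genes, -0.20 to 0.12, shaded; the number of genes is in brackets. All 18 T and natural killer genes lie left of 0, and 13 of 15 fibroblast genes lie right of it.

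The single genes below were picked for the size of their difference, so they cannot be set against the list medians. Among genes above the floor in both lungs, the widest gaps were those of Itga1, a collagen-binding integrin (5.95 and 9.86), Rnase6, an antimicrobial ribonuclease (9.54 and 6.77), Fndc1 (5.41 and 8.16) and Rgs4, a brake on G protein signalling (6.72 and 9.46). Angptl4, an inhibitor of lipoprotein lipase, read 7.84 and 5.20, Mal 9.74 and 7.12 and the early response gene Nr4a1 10.25 and 7.75. Per1, a clock gene, read 6.78 and 9.19, the growth factor Areg 5.32 and 7.72, and the leukocyte receptor gene Lilrb2 7.71 and 5.32. Elastin, Eln, the core of elastic fibres, read 11.87 and 10.24, with its second probe set at 7.93 and 5.17, a gap in the same direction; it was named after its values were seen.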

How the data were processed

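Of 8 rat lungs, each amplified from 300 ng of RNA and hybridised to a 1-colour Affymetrix array, the 2 non-ventilated ones were used. The values the authors deposited are log2 GCRMA summaries per probe set, made with GCRMA and Partek 6.5 per the submitters' processing notes. GCRMA corrects background, normalizes arrays to common quantiles and combines probes. That puts both arrays on 1 scale, so a change in total RNA is not visible. The labels name no filter; detection calls (present or absent) were not used. The number of arrays limits the precision.

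Python 3.11.15 with pandas 2.3.3 was used. Symbols came from GEO's platform annotation: 14993 probe sets had 1 symbol, 353 several and 4868 none; 14949 matched a RefSeq gene of GRCr8 by gene identifier, which changed 0 symbols. The highest probe set stood for a gene. No test was run, since 1 group holds 2 arrays; lists are described by counts and medians, to be read against those of all genes. Counting of genes, lists and motifs was tested on simulated data. Promoters (RefSeq, GRCr8) matched 9322 genes (83.1%); groups with under 80% matched are not described. Protein lengths were planned and not run. Genes were named from the 30 highest, the 15 lowest, the 10 nearest the median, the 10 widest differences, the 4 highest and 2 lowest of each list, the ends of families, and all alveolar and transcription factor members; not every such gene is named, and others are stated to be chosen after their values were seen. The part, its lists and rules were chosen with earlier results of these data known.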

Additional observations from a re-analysis of the deposited data

How the results depend on the processing

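The number of genes under the floor in both lungs, 1199, was 744 with a floor of 4, 2606 with a floor of 7 and 2069 with the lowest probe set of each gene; it was 1763 with a floor of 6, and ranged from 1288 to 1328 when 1 lung was left out. The number above the floor, 9799, stayed between 8244 and 10285 under all alternatives run, the former at a floor of 7. Of the 100 highest genes, 80 were kept with the lowest and 82 with the median probe set of a gene, and 92 to 99 under the other alternatives. The signal share of the 100 highest probe sets was 13.5% and became 12.8% over all probe sets. List medians moved by more than the spread between the lungs in 24 of 52 lists with the lowest probe set and in 18 with the median one; a rank has no log2 value, so the mean of ranks gave no list median. Differences between the lungs, recomputed after seeing the data, kept within 0.25 log2 units in 51 of 52 lists for each choice of probe set, and in all 52 with centred arrays. No paired analysis was possible because no groups were compared. The floor of 5 is a working limit and not a measured background; without detection calls, whether a low value lies above background is unknown.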
